A study of Saccharomyces cerevisiae with 6 samples.

Results

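Ubiquitin conjugation genes, Rub1 conjugation genes and the proteasome gene PRE3 are described here by the splicing of their introns in budding yeast. The 10 genes were taken by name: the ubiquitin-conjugating enzyme genes UBC4 (YBR082C), UBC5 (YDR059C), UBC8 (YEL012W) and UBC13 (YDR092W), the enzyme variant MMS2 (YGL087C), the SUMO-conjugating enzyme gene UBC9 (YDL064W), the Rub1 pathway genes RUB1 (YDR139C), UBC12 (YLR306W) and DCN1 (YLR128W), and PRE3 (YJL001W). Each had 1 targeted intron, so they held 10 of 309 introns and 10 of 298 genes of the whole data set. RNA came from 3 libraries of a prp2-1 strain (EJS7), which carries a temperature-sensitive allele of the spliceosomal ATPase Prp2, and 3 libraries of a wild type strain (WT, EJS1), labelled replicates A to C in each group. Both strains grew in rich medium at 25 °C and were moved to 37 °C for 15 minutes before collection, so the heat shift is shared by both groups, and no unshifted library was part of the comparison. Multiplexed primer extension sequencing (MPE-seq) starts cDNA synthesis from a pool of primers placed downstream of introns, and each read then shows the neighbouring intron as removed (spliced) or kept (unspliced). Each intron has its own primer, so numbers of reads are compared between groups for 1 intron and not between genes.

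Ubiquitin is a small protein that is attached to other proteins by a chain of enzymes: an activating enzyme loads it, a conjugating enzyme carries it, and a ligase selects the target, which is often then degraded by the proteasome. The related modifiers SUMO and Rub1 (the yeast NEDD8) use parallel enzymes, with Ubc9 carrying SUMO and Ubc12 carrying Rub1 to cullins, the scaffolds of one class of ubiquitin ligase. Prp2 acts on the assembled spliceosome just before the first chemical step of splicing, in which the branch point adenosine attacks the 5′ splice site.

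The libraries held 1612685 to 2671271 counted reads. Unspliced reads were 7.47 to 11.02% of all counted reads in prp2-1 libraries and 1.73 to 1.88% in WT libraries, with replicate C the highest among the prp2-1 libraries. The chi-square of 2 replicates' counts, divided by its degrees of freedom, was 42.4 to 76.4 within prp2-1 and 19.2 to 34.8 within WT, where counting error alone would give about 1. A list of markers of another cell type or state, the a1 gene HMRA1 and 12 meiotic genes with 15 targeted introns, summed to 232 to 451 reads per 1000000 counted reads (RPM) in prp2-1 and 2746 to 3164 in WT. Intron 1 of HMRA1 had 0 to 6 spliced reads per prp2-1 library and 4777 to 6361 per WT library. Without HMRA1 the sums were 231 to 450 in prp2-1 and 123 to 153 in WT. This rise was not shared by all meiotic genes. In the edgeR test of total reads used below, REC114 (log2 change 5.05), PCH2 (1.09) and MND1 (1.06) were called higher. DMC1 (-0.26), REC107 (0.05) and HOP2 intron 2 (-0.003) did not pass. The gene PRP2 has no targeted intron here, so the genotype labels could not be checked on it. HMRA1 reads thus differed between the groups in every library, and the labels give no mating type for either strain. The strains may therefore differ in more than the prp2-1 allele, and its effect cannot be told apart from other differences between them. Whether the difference in HMRA1 plays a part in the results was not tested. The labels describe cultures started from single colonies but not which library came from which culture, so p-values measure the spread between these libraries, which may be technical.

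The intron sequences are given for the 2 pairs that are compared and for UBC9, UBC12 and UBC8, whose 5′ splice site or branch motif departs from the common letters, because they show what the splicing machinery has to read in each transcript. They were read from the RefSeq copy of build R64, in the sense of transcription. Capitals mark the first 6 bases (the 5′ splice site), the closest match to TACTAAC with the branch point adenosine in place, and the last 3 bases. A match is a match of letters and not a mapped branch point. UBC4 lies at chrII:407028-407122 and UBC5 at chrIV:569634-569723, both on the minus strand; UBC13 lies at chrIV:629906-630173 on the plus strand and MMS2 at chrVII:346809-346893 on the minus strand. UBC9 (chrIV:337525-337634), UBC12 (chrXII:744154-744287) and UBC8 (chrV:131777-131899) lie on the plus strand.
UBC4: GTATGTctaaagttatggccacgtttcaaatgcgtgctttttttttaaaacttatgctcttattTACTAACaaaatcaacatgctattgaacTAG
UBC5: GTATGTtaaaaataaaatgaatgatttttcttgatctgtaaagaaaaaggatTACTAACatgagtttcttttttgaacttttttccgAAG
UBC13: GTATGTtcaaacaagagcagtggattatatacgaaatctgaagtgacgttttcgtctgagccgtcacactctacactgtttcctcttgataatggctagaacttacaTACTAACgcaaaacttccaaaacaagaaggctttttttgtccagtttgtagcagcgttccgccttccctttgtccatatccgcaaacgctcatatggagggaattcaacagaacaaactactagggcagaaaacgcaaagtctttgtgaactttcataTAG
MMS2: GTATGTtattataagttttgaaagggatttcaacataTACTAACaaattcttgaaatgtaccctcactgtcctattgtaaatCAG
UBC9: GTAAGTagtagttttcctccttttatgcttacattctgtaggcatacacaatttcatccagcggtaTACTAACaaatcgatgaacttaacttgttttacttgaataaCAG
UBC12: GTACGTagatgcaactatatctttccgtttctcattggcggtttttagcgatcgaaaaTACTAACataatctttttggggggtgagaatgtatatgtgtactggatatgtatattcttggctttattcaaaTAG
UBC8: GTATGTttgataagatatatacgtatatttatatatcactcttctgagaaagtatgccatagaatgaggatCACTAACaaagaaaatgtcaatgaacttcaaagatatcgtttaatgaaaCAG

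Of the 10 introns, 8 began with GTATGT, as did 73.1% of the 279 introns that could be placed on the annotation. The other 2 were UBC9 with GTAAGT, found in 4.66% of placed introns, and UBC12 with GTACGT, found in 9.32%. TACTAAC was present in 9 of the 10 and in 82.4% of placed introns, searched on the transcribed strand. The exception was UBC8, whose closest match was CACTAAC, with 1 mismatch. UBC5 was the 1 member that ended in AAG, found in 4.66% of placed introns, where TAG ended 51.3% and CAG 43.4%. The 10 introns were 73 to 268 bases long (median 102.5, against 139 for all placed introns), and all lay inside the coding sequence. RUB1 (chrIV:733703-733775, minus strand) had the shortest intron and UBC13 the longest. The adenosine of the match was followed by 12 bases in RUB1 and by 155 in UBC13, with 25 in UBC4, 32 in UBC5 and 42 in MMS2. In UBC12 and DCN1 (chrXII:398533-398626, plus strand) only the 3 bases of the start codon precede the intron in the coding sequence, in UBC8 5 bases and in MMS2 11. That made 4 of 10 introns with at most 11 coding bases before them, against 24.7% of placed introns. PRE3 (chrX:435228-435343, plus strand) had 65. The annotation gives coding exons, so transcribed bases before the start codon are not counted.

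Every one of the 10 introns was kept in a larger share of its reads in prp2-1 than in WT. The unspliced percent, which is the unspliced reads over the sum of both kinds, had a median over these introns of 81.2% in prp2-1 and 5.66% in WT, against 46.0% and 3.74% for all 274 introns with a mean of at least 10 reads per library. The test asked whether the ratio of unspliced to spliced reads changed (edgeR quasi-likelihood test, adjusted over 274 introns, threshold 0.05). It called 10 of 10 members higher and 0 lower, where 93.4% of all tested introns were called higher and 0.00% lower. The count is thus near the share among all introns. The median log2 change was 6.04 for the members and 4.64 for all tested introns. Libraries of the 2 groups did not overlap in any of the 10 members, against 92.0% of all tested introns without overlap. The level reached in prp2-1 ran from 38.3% for UBC9 to 99.98% for MMS2, and 9 of 10 members exceeded 50%, against 133 of 274 introns. In WT, UBC12 and MMS2 already exceeded 50%. The 274 introns include many ribosomal protein introns, most of which stayed largely spliced in prp2-1. These lower the median of all introns in prp2-1, and the members were not compared with the remaining introns alone.

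**Figure D1:**
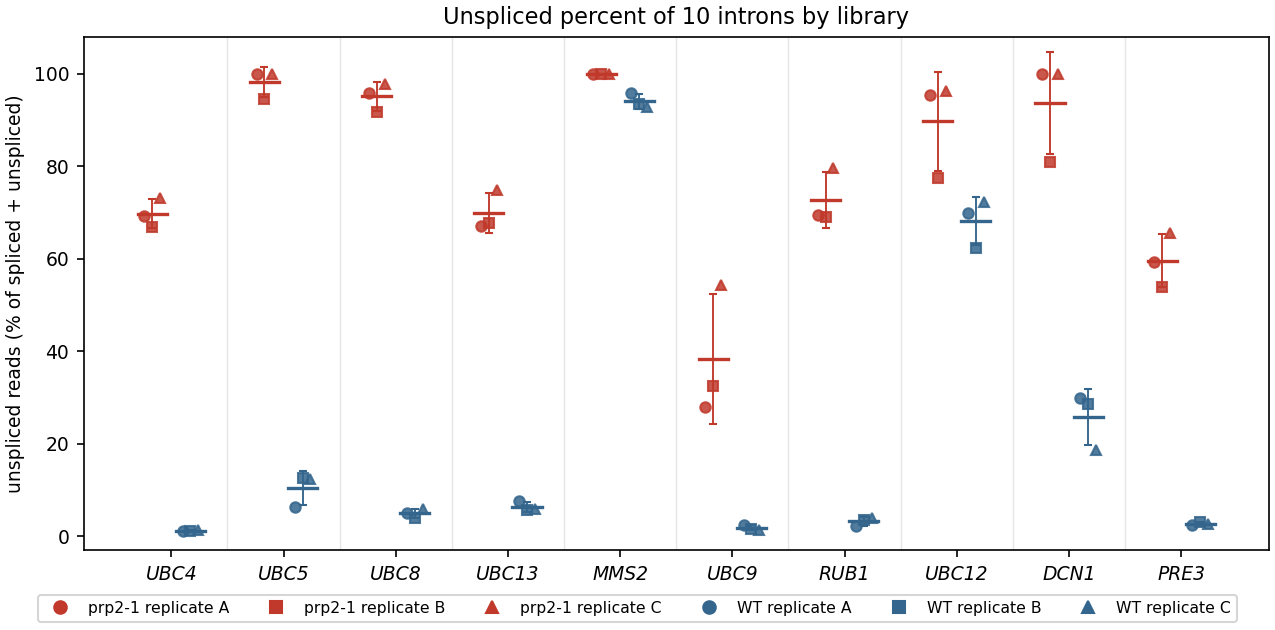
Unspliced reads as a percent of spliced plus unspliced reads (vertical axis) for the 10 introns, with 1 symbol per library (prp2-1 red, WT blue), the horizontal line at the mean and bars of 1 SD (n = 3). Every prp2-1 library lies above every WT library of the same intron, with the narrowest gap in MMS2 and UBC12.

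**Figure D2:**
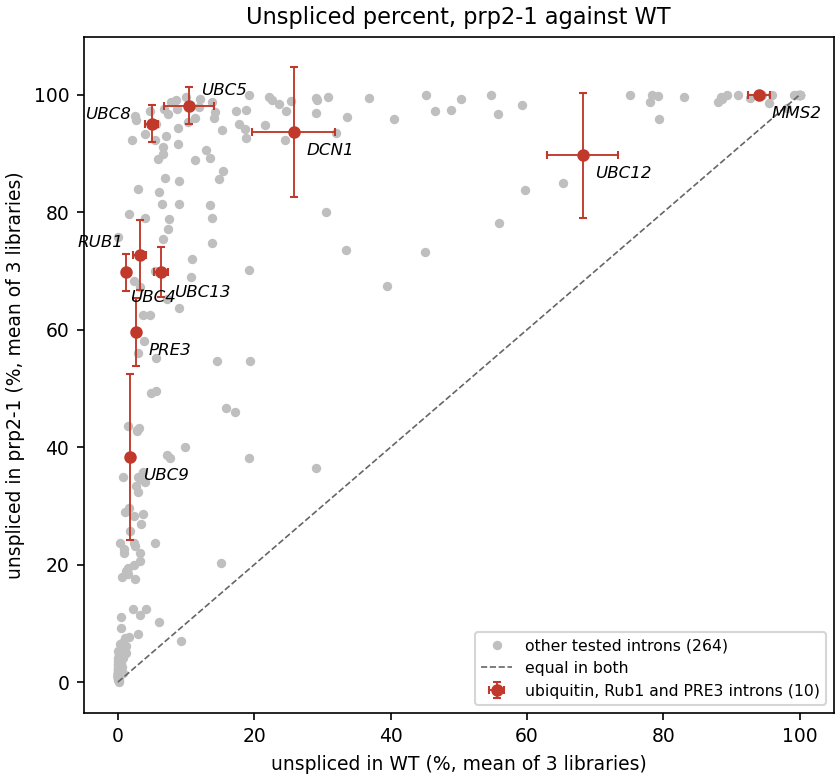
Mean unspliced percent in prp2-1 (vertical axis) against WT (horizontal axis) for the 274 tested introns, with the 10 members in red with bars of 1 SD (n = 3) and the dashed line where both groups are equal. All 10 members lie above the line, from 38.3% in prp2-1 for UBC9 to 99.98% for MMS2.

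UBC4 and UBC5 encode closely related ubiquitin-conjugating enzymes with overlapping roles in the turnover of short-lived and abnormal proteins. UBC4 had 1767, 2850 and 2796 spliced and 3989, 5745 and 7594 unspliced reads in prp2-1 replicates A, B and C, against 13325, 16607 and 21934 spliced and 157, 196 and 283 unspliced reads in WT replicates A, B and C. Spliced reads were several times fewer and unspliced reads many times more in every prp2-1 library, with no overlap. The unspliced percent was 69.7% ± 3.15 in prp2-1 and 1.20% ± 0.0625 in WT (SD, n = 3 libraries here and below), a log2 change of the ratio of 7.57 ± 0.35 (SE, edgeR adjusted p = 2.55e-15). The change was also 7.57 with limma (adjusted p = 1.70e-07) and with DESeq2 (adjusted p = 7.1e-118), so the size of p depends on the model. UBC5 had 0, 1 and 0 spliced and 34, 17 and 41 unspliced reads in prp2-1, against 45, 62 and 64 spliced and 3, 9 and 9 unspliced reads in WT. Spliced UBC5 RNA was near the limit of detection in prp2-1, and its single spliced read came from replicate B. Its unspliced percent was 98.1% ± 3.21 in prp2-1 and 10.4% ± 3.61 in WT, and the ratio was 717-fold higher from summed reads (95% exact conditional interval 114 to 30063, counting error only). In the edgeR fit the log2 change of the ratio was 9.06 ± 0.96 (adjusted p = 3.27e-09), with 8.35 without prp2-1 replicate C and 8.40 with limma. Without replicate B no spliced read remained, and with 3 counts over the other 2 libraries in its place the ratio was 204-fold higher. That value takes all other counts as exact, so it is not a lower bound.

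The paralogs were spliced to different extents in both strains, with UBC5 the less spliced of the pair in every library. On the log2 ratio scale with 0.5 added to each count, UBC5 stood above UBC4 by 4.93, 2.53 and 4.93 in prp2-1 replicates A, B and C and by 2.70, 3.68 and 3.51 in WT replicates A, B and C. The 2 sets of differences overlap. The change of the ratio was 0.83 ± 0.86 (SE) larger in UBC5 than in UBC4 (exact two-sided permutation p = 0.4, adjusted p = 0.4 over the 2 pairs compared, where 3 against 3 libraries cannot give a p below 0.1). This test could not pass 0.05 with so few libraries, so it leaves the difference undecided. The value was -0.041 with 1 added to each count, 2.60 with 0.1 added, 1.64 without prp2-1 replicate B and -0.67 with reads drawn at random from each library. The fold for UBC4 from summed reads was 191 (interval 175 to 207), inside the interval for UBC5. The coding parts of the 2 genes have the same lengths, and 38 of 47 bases before the intron and 307 of 400 after it are identical. In the first 100 bases after the intron 77 are identical, and the longest shared run there is 13 bases. In a global alignment of the introns, of 95 and 90 bases, 56 positions are identical and 55 differ or hold a gap (50.5% identical).

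The introns whose pattern over the 6 libraries was most like UBC4 (smallest Euclidean distance of log2 ratios, members left out) were those of COX4, at a distance of 1.73, YOS1 intron 2, at 1.86, and POP8, at 2.04. COX4 reached 79.7% ± 5.99 in prp2-1, with 1.68% ± 0.371 in WT. Those most like UBC5 were YSC84 (2.15), BOS1 (2.21) and DID4 (2.29), which reached 97.0% ± 1.02, 96.1% ± 1.66 and 97.5% ± 0.467 in prp2-1.

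UBC13 and MMS2 encode the partners of 1 heterodimeric enzyme: Ubc13 is the catalytic conjugating enzyme and Mms2 a variant without a catalytic cysteine, and together they build the ubiquitin chains used in tolerance of DNA damage. UBC13 had 314, 372 and 396 spliced and 640, 783 and 1173 unspliced reads in prp2-1, against 847, 1184 and 1544 spliced and 69, 70 and 98 unspliced reads in WT. It was mostly spliced in WT and mostly unspliced in prp2-1, at 69.9% ± 4.24 in prp2-1 and 6.36% ± 1.03 in WT (log2 change of the ratio 5.11 ± 0.35, edgeR adjusted p = 1.84e-12). MMS2 had 0, 1 and 0 spliced and 1037, 1657 and 3471 unspliced reads in prp2-1, against 6, 13 and 18 spliced and 141, 185 and 232 unspliced reads in WT. The intron of MMS2 was thus kept in most reads of both strains, at 99.98% ± 0.0348 in prp2-1 and 94.1% ± 1.65 in WT, where it ranked 17 of 274 from the highest. The rise was 5.93 percentage points, the smallest of the 10, while the ratio was 408-fold higher from summed reads (interval 68.6 to 16580). In the edgeR fit the log2 change of the ratio was 8.14 ± 0.70 (adjusted p = 1.01e-10), with 7.13 without prp2-1 replicate C and 7.34 with limma. All of the prp2-1 spliced count again lay in replicate B. Without it, a floor of 3 spliced reads over replicates A and C gave a 99.6-fold higher ratio, with all other counts taken as exact. No annotated gene overlaps MMS2, and its nearest neighbours, SNR10 at 175 bases beyond its coding end and MAD1 at 214 bases before its start, are on the opposite strand.

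On the log2 ratio scale, UBC13 stood below MMS2 in every library: the difference was -9.99, -9.04 and -11.2 in prp2-1 replicates A, B and C and -8.05, -7.85 and -7.62 in WT replicates A, B and C. These sets do not overlap. The ratio changed by 2.23 ± 0.64 (SE) less in UBC13 than in MMS2 (difference -2.23, exact two-sided permutation p = 0.1, the smallest that 3 against 3 libraries can give, adjusted p = 0.2 over the 2 pairs). Its size depends on the pseudocount, at -1.5005 with 1 added and -3.87 with 0.1 added, and it was -0.73 with the drawn reads. The fold for UBC13 from summed reads was 36.2 (interval 31.1 to 42.2), below the interval for MMS2, with counting error alone.

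**Figure D3:**
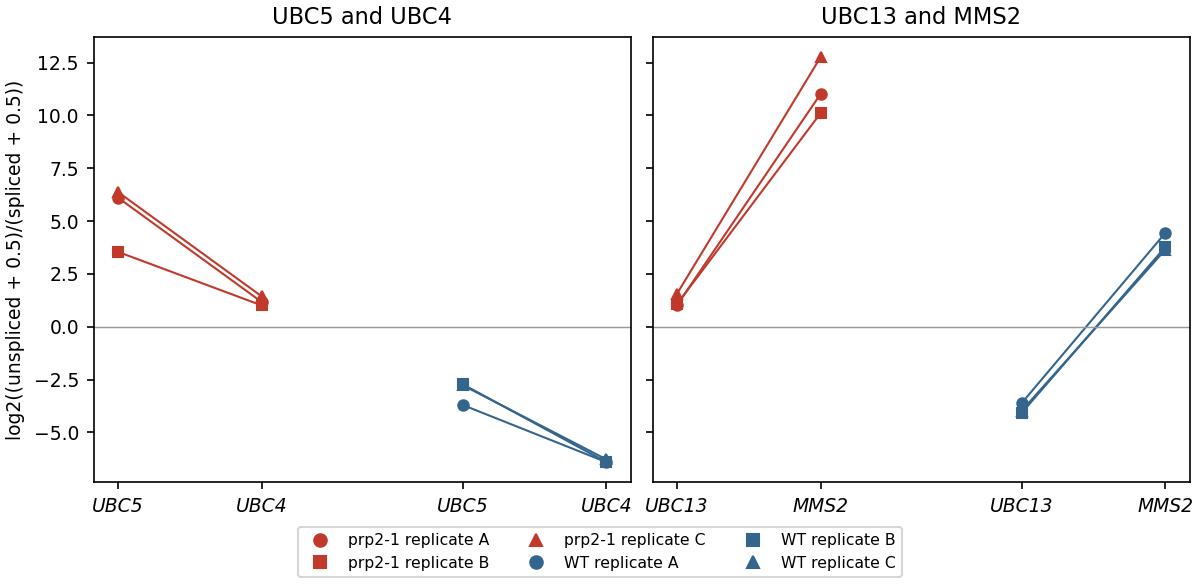
Log2 ratio of unspliced to spliced reads with 0.5 added to each (vertical axis) for UBC5 and UBC4 (left panel) and for UBC13 and MMS2 (right panel), with lines joining the 2 genes of 1 library, a symbol for each replicate, prp2-1 in red and WT in blue. UBC5 lies above UBC4 and MMS2 above UBC13 in all 6 libraries.

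UBC8 encodes the conjugating enzyme known for the degradation of fructose bisphosphatase when glucose returns. It had 7, 21 and 13 spliced and 161, 230 and 591 unspliced reads in prp2-1, against 477, 931 and 1136 spliced and 25, 39 and 71 unspliced reads in WT. The groups did not overlap in either kind of read, and unspliced reads of prp2-1 replicate C, in RPM, were 3.005 times the mean of A and B. The unspliced percent was 95.1% ± 3.17 in prp2-1 and 4.96% ± 0.931 in WT, the largest rise of the 10 in percentage points, at 90.1 (log2 change of the ratio 8.72 ± 0.49, edgeR adjusted p = 4.98e-14; 9.37 without prp2-1 replicate B and 8.13 without C).

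UBC9, the SUMO-conjugating enzyme gene, had 139, 147 and 109 spliced and 54, 71 and 130 unspliced reads in prp2-1, against 890, 1118 and 1368 spliced and 22, 19 and 19 unspliced reads in WT. It was the least unspliced member in prp2-1 and the most variable there, with 28.0%, 32.6% and 54.4% in replicates A, B and C (95% Wilson intervals 22.1 to 34.7%, 26.7 to 39.0% and 48.1 to 60.6%). The interval of replicate C lies above those of A and B. The means were 38.3% ± 14.1 in prp2-1 and 1.82% ± 0.536 in WT (log2 change of the ratio 5.08 ± 0.45, edgeR adjusted p = 1.53e-10).

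In the Rub1 pathway, RUB1 itself, the gene of the modifier, had 305, 357 and 257 spliced and 697, 794 and 1001 unspliced reads in prp2-1, against 1004, 1095 and 1288 spliced and 22, 41 and 53 unspliced reads in WT. Its unspliced percent was 72.7% ± 5.95 in prp2-1 and 3.24% ± 0.960 in WT (log2 change of the ratio 6.35 ± 0.39, edgeR adjusted p = 2.75e-13). RUB1 thus resembled UBC13 and UBC4 in the level reached in prp2-1, and the ranges of the 3 introns over the prp2-1 libraries overlap. UBC12, whose product carries Rub1, had 1, 7 and 2 spliced and 21, 24 and 51 unspliced reads in prp2-1, against 6, 17 and 10 spliced and 14, 28 and 26 unspliced reads in WT. It was mostly unspliced in both strains, at 89.7% ± 10.6 in prp2-1 and 68.1% ± 5.25 in WT, and its change of the ratio was the smallest of the 10 (2.13 ± 0.86, edgeR adjusted p = 0.0219). That call was lost without WT replicate A (adjusted p = 0.0619) or B (0.0881) and without prp2-1 replicate A (0.0644) or C (0.141), and the change was 3.41 without prp2-1 replicate B. DCN1, whose product promotes the transfer of Rub1 to the cullin Cdc53, had 0, 4 and 0 spliced and 14, 17 and 46 unspliced reads in prp2-1, against 14, 25 and 52 spliced and 6, 10 and 12 unspliced reads in WT. Its intron was kept in 93.7% ± 10.997 of reads in prp2-1 and in 25.8% ± 6.12 in WT (log2 change of the ratio 5.68 ± 1.01, edgeR adjusted p = 1.14e-05; 4.54 without prp2-1 replicate C, adjusted p = 0.0013). The 4 spliced reads were all in prp2-1 replicate B, and without it the same floor gave a 65.0-fold higher ratio. From summed reads of all libraries the ratio was 60.8-fold higher (interval 20.3 to 249), so the floor value is not a lower bound.

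PRE3 encodes a catalytic beta subunit of the proteasome core. It had 517, 647 and 635 spliced and 755, 758 and 1209 unspliced reads in prp2-1, against 2095, 2552 and 3469 spliced and 53, 81 and 92 unspliced reads in WT. Spliced reads were thus left in every prp2-1 library, at 242 to 280 RPM, and the unspliced percent of 59.6% ± 5.81 in prp2-1 was the second lowest of the 10, with 2.71% ± 0.323 in WT (log2 change of the ratio 5.74 ± 0.35, edgeR adjusted p = 2.20e-13).

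Over the 10 introns, prp2-1 replicate C had the highest unspliced percent in UBC4, UBC8, UBC13, UBC9, RUB1, UBC12 and PRE3. In UBC5, MMS2 and DCN1 it was tied for the highest with replicate A, both at 100%. Unspliced reads of replicate C, in RPM, were 1.31 to 3.005 times the mean of replicates A and B. The median was 1.83 over the members and 1.34 over the 273 tested introns with unspliced reads in A or B. Spliced reads of the members in replicate C were 0 to 1.22 times the mean of A and B.

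The 2 kinds of read were then taken apart, each scaled to the library's counted reads, so that a change is relative to all targeted introns. Spliced reads fell in 10 of 10 members (edgeR, adjusted over 274 introns), where 57.7% of all tested introns fell and 6.20% rose, and the median log2 change was -3.05 for the members and -0.91 for all tested introns. Spliced reads of many ribosomal protein introns changed little, as in RPL30 (0.14) and RPL32 (-0.04), though RPS27A fell (-1.53). Such introns bring the share and the median of all introns nearer to no change. The members were not compared with the remaining introns alone. The spliced reads left in prp2-1 were 27.9% of the WT mean in UBC13, 24.9% in UBC12, 24.4% in RUB1, 20.2% in PRE3, 12.8% in UBC4 and 10.8% in UBC9. They were 3.57% in DCN1, 2.15% in MMS2, 1.43% in UBC8 and 0.443% in UBC5, and those of DCN1, MMS2 and UBC5 all lay in prp2-1 replicate B. In UBC12 the fall (log2 change -1.82 ± 0.68, edgeR adjusted p = 0.0389) was lost with DESeq2 (adjusted p = 0.154) and without WT replicate A (0.0586) or B (0.191) or prp2-1 replicate A (0.105) or C (0.109), and was -2.77 without prp2-1 replicate B. Groups did not overlap in spliced RPM in any of the 10, against 70.1% of tested introns without overlap.

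Unspliced reads rose in 9 of 10 members and fell in 0, where 90.9% of tested introns rose and 2.19% fell. The median log2 change was 3.06 for the members and 3.02 for all tested introns. The largest rises were those of UBC4 (4.67 ± 0.28, SE) and RUB1 (4.35 ± 0.34), followed by PRE3 (3.503 ± 0.32), MMS2 (3.35 ± 0.30, and 2.74 without prp2-1 replicate C) and UBC13 (3.34 ± 0.32). UBC12 did not pass (0.40 ± 0.43, edgeR adjusted p = 0.364), with 11.4, 8.98 and 22.5 unspliced RPM in prp2-1 against 8.68, 14.1 and 10.3 in WT. UBC12 was the 1 member whose groups overlapped in unspliced reads, against 94.5% of tested introns without overlap. DCN1 rose by 1.35 ± 0.51, a call lost without prp2-1 replicate C (0.64, adjusted p = 0.288).

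**Figure D4:**
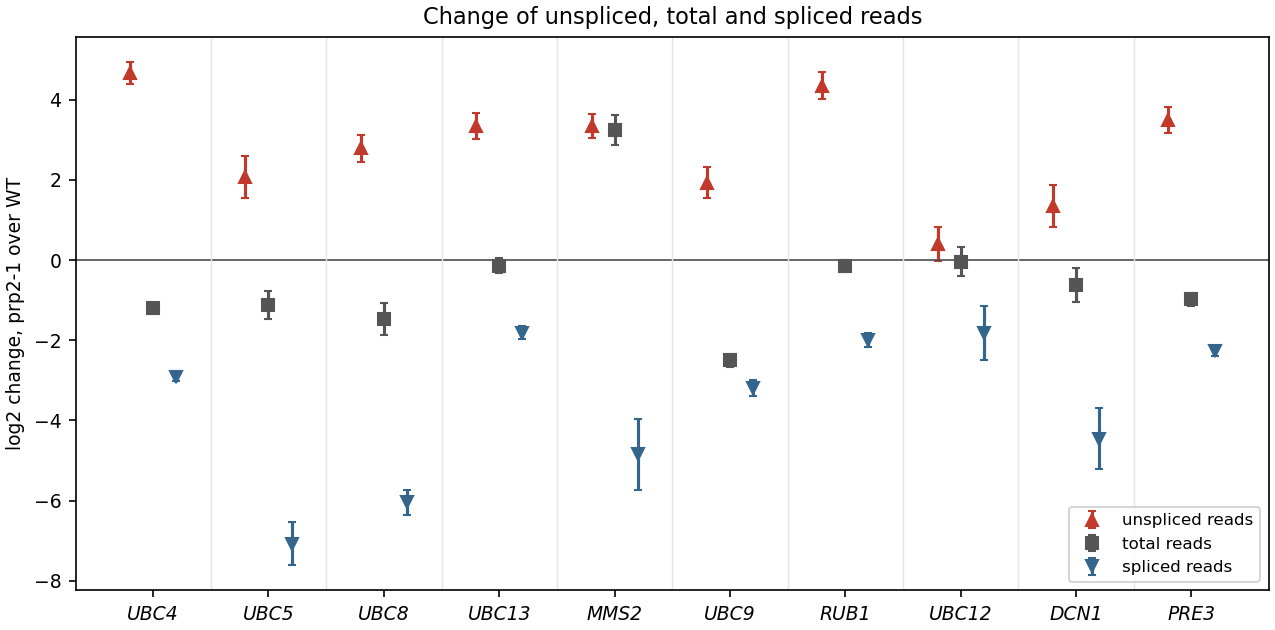
Log2 change, prp2-1 over WT (vertical axis), of unspliced, total and spliced reads of the 10 introns from edgeR, with bars of 1 SE. Spliced reads lie below 0 in all 10 and total reads well above 0 only in MMS2, at 3.26.

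Total reads, spliced plus unspliced, rose in 1 member and fell in 5, where 19.7% of tested introns rose and 23.7% fell. Their median log2 change was -0.80 for the members and -0.004 for all tested introns. The latter include the many ribosomal protein introns, and here too the members were not compared with the remaining introns alone. MMS2 was the riser: it had 562, 621 and 1530 total RPM in prp2-1, against 91.2, 99.8 and 99.3 in WT. Each prp2-1 library was far above WT, and the change of 3.26 ± 0.37 (SE, edgeR adjusted p = 8.51e-05) ranked 3 of 274 from the highest. Replicate C of prp2-1 had 2.59 times the mean of A and B in unspliced MMS2 reads, and without it the change was 2.65. UBC9 had 105, 81.6 and 105 total RPM in prp2-1, against 566, 573 and 551 in WT. This was the largest fall of the 10 (log2 change -2.50 ± 0.17, edgeR adjusted p = 5.80e-06) and ranked 7 of 274 from the lowest. In bulk RNA of this kind a change in the amount of RNA per cell cannot be told apart from a change in the share of cells that make it.

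UBC4 fell to 3119, 3218 and 4579 total RPM in prp2-1, against 8360, 8471 and 8828 in WT (log2 change -1.20 ± 0.14, edgeR adjusted p = 8.51e-05). PRE3 fell by 0.97 ± 0.16 on the log2 scale (adjusted p = 0.00108). UBC8 fell by 1.47 ± 0.40 (adjusted p = 0.0182), a change that was -2.17 without prp2-1 replicate C and not called without prp2-1 replicate B (-1.23, adjusted p = 0.0639). UBC5 fell by 1.12 ± 0.35 (adjusted p = 0.0279), and its call was lost with DESeq2 (adjusted p = 0.0747), with reads drawn at random from each library (0.154) and without WT replicate A (0.0673), B (0.0701) or C (0.0606). UBC13 (-0.14 ± 0.19), RUB1 (-0.15 ± 0.15), UBC12 (-0.04 ± 0.36) and DCN1 (-0.62 ± 0.43) did not pass, and their groups overlapped in total RPM. The other 6 members did not overlap, against 56.2% of tested introns without overlap. DCN1 was called lower without prp2-1 replicate C (-1.25, adjusted p = 0.0234).

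Set side by side, the gain of unspliced RPM was 83.1% of the loss of spliced RPM in UBC13 and 83.2% in RUB1. It was 51.2% in DCN1, 39.0% in UBC5, 35.3% in PRE3, 33.3% in UBC4 and 30.9% in UBC8. In UBC9 it was 5.56%. Several of these shares rest on prp2-1 replicate C, which was left out for this comparison after the data were seen: without it the share was 18.6% in DCN1, 16.4% in UBC8 and 3.62% in UBC9, against 66.3% in UBC13, 77.3% in RUB1, 32.4% in UBC5, 29.2% in PRE3 and 27.6% in UBC4. The shares were higher without prp2-1 replicate B instead, at 96.7% in UBC13, 92.5% in RUB1, 67.4% in DCN1 and 52.9% in UBC5. They were then 41.7% in PRE3, 38.1% in UBC8, 36.0% in UBC4 and 6.72% in UBC9. UBC12, whose unspliced reads did not pass the test, gained 3.24 unspliced RPM with all 3 libraries and -0.86 without replicate C, and no share is given for it. MMS2 stood apart, with a gain of 813 unspliced and a loss of 5.68 spliced RPM (500.2 and 5.62 without replicate C). These shares assume that both kinds of cDNA are made and counted equally well, which was not tested. Scaled instead to 13 tested introns with over 98% of their WT reads unspliced, the median log2 change of all introns moved by -0.29 for total, -0.32 for unspliced and -0.24 for spliced reads. On that scale total reads were called higher in 27 and lower in 91 of all tested introns, against 54 and 65 with the scaling used above. Total reads fell in 7 members, UBC13 (-0.45, adjusted p = 0.0442) and DCN1 (-0.98, adjusted p = 0.0414) included, and unspliced reads rose in 8, without DCN1 (0.99, adjusted p = 0.0583). Of all 274 tested introns, 244 were called higher and 9 lower in unspliced reads on that scale, so the count for the members is near that share.

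**Figure D5:**
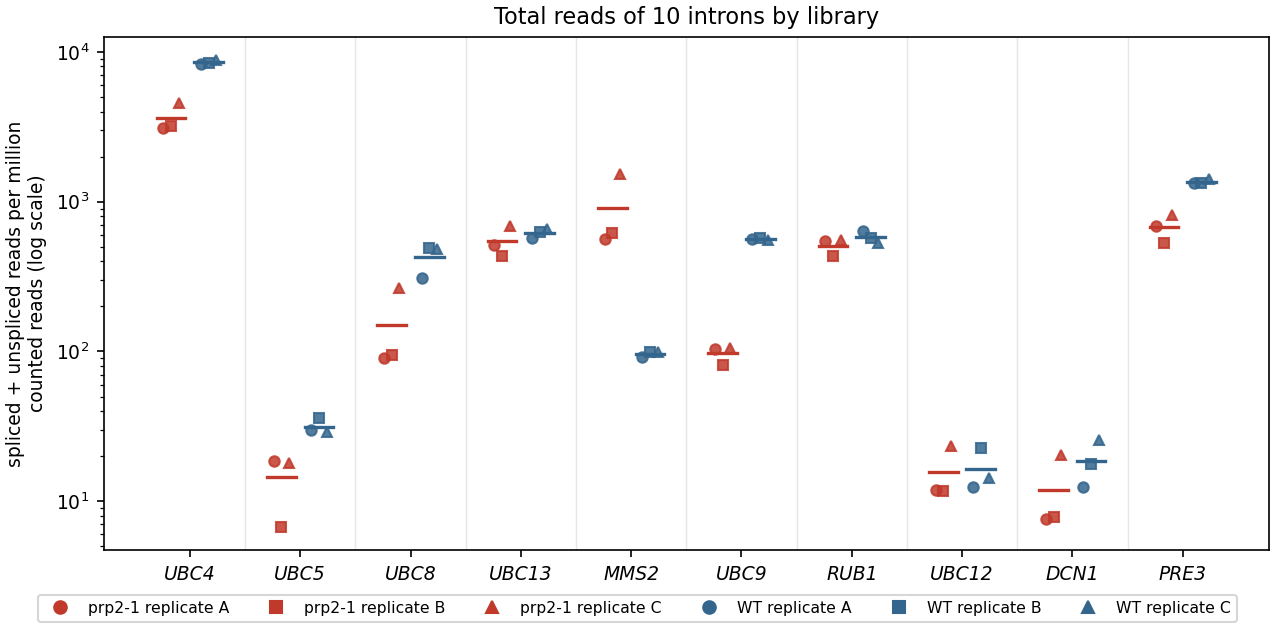
Spliced plus unspliced reads in RPM (vertical axis, log scale) of the 10 introns, with 1 symbol per library (prp2-1 red, WT blue) and the horizontal line at the mean of 3 libraries. MMS2 lies higher in all 3 prp2-1 libraries and UBC9 lower, while UBC13, RUB1, UBC12 and DCN1 overlap; heights of different genes are not comparable.

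Of the other ubiquitin pathway genes listed, RPL40A, RPL40B and SUS1 had tested introns, 4 in all, and AMA1 was under the minimum of reads. RPL40A and RPL40B encode ubiquitin fused to a ribosomal protein, and SUS1 a subunit of the deubiquitinating module of SAGA. The ratio rose in 4 of 4 introns, where 93.4% of all tested introns rose. Total reads passed the edgeR test in 0 of 4, with log2 changes of 0.06 to 0.49. Among all tested introns 19.7% rose and 23.7% fell in total reads, so counts over 4 introns do not set these genes apart. SUS1 intron 1 was the 1 of 4 with an unadjusted edgeR p under 0.05 (0.0374, adjusted p = 0.0748), and DESeq2 called it higher (0.52, adjusted p = 0.0293). The unspliced percent was 2.25% ± 0.586 in prp2-1 and 0.1902% ± 0.0237 in WT for RPL40A, and 5.07% ± 1.88 in prp2-1 and 0.184% ± 0.0182 in WT for RPL40B. Both ubiquitin precursor introns thus stayed mostly spliced in prp2-1. They lay below each of the 10 conjugation and proteasome introns, whose lowest prp2-1 library was at 28.0%. Many ribosomal protein introns were at a like level in prp2-1, such as RPL30 (1.83%), RPS16B (2.02%) and RPL32 (4.02%), though RPL2B (73.6%) and RPS27A (74.8%) were not. The low level was thus not particular to ubiquitin precursors. As RPL40A and RPL40B are near-identical copies, reads may be split between them. In SUS1, 96.3% ± 1.10 of intron 1 reads and 95.05% ± 2.61 of intron 2 reads were unspliced in prp2-1, against 33.5% ± 1.86 and 17.8% ± 1.41 in WT.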

How the data were processed

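The submitters' processing notes name fastp 0.19.5, HISAT2 2.2.1, SAMtools and build R64. The rule by which a read counted as spliced or unspliced, and any removal of duplicates, are not given in the sources used here. Values are raw counts of spliced and unspliced reads per intron and library, as deposited by the authors. A second deposited table counts random draws of reads from the same libraries, and its greatest depth served as an alternative. Its column headed Seed was read as the depth and that headed Size as the number of the draw, since counted reads averaged 137745, 275571 and 551593 at Seed values of 200000, 400000 and 800000 and 320740 to 323030 over the 5 Size values. Introns with a mean of at least 10 spliced plus unspliced reads were tested, which left 274 of 309. The unspliced to spliced ratio was tested with edgeR 4.0.16 (R 4.3.3), quasi-likelihood, with terms for library, read type and read type by genotype; total, unspliced and spliced reads were tested with library totals and TMM factors. P-values were adjusted by Benjamini-Hochberg over 274 introns at 0.05. Standard errors were derived from the log2 change and its F statistic. Pairs of genes were compared by exact permutation over libraries (SciPy 1.17.1). DESeq2 1.42.0 and limma 3.58.1 were alternatives. Scripts were tested on simulated data. Intervals (95%) cover counting error only, and the floor of 3 counts covers that of the prp2-1 spliced count alone. Intron positions came from coding exons of the RefSeq R64 annotation, in which 279 introns were placed. Branch motif matches required an A at its sixth base, and introns of UBC4 and UBC5 were aligned with match 1, mismatch -1 and gap costs -2 and -0.5. All 10 members passed the filter and are all named. The other tested genes named are those of the pathway and marker lists and the 3 introns nearest to UBC4 and to UBC5. Some ribosomal protein introns are also named for comparison with the members or with RPL40A and RPL40B. The members, lists and tests were chosen with earlier results of these data known. Protein sequences were not used here.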

Additional observations from a re-analysis of the deposited data

How the results depend on the processing

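The ratio change kept its direction in 10 of 10 members under every alternative run, and its call in all but UBC12. With a minimum mean of 50 reads 7 members could be tested, and with the drawn reads 8, and all of these were called. Nearly all introns were called in these settings too, at 247 of 258 and 245 of 260. Leaving out 1 library gave 9 to 10 members called higher in the ratio, 9 to 10 lower in spliced reads, 8 to 9 higher in unspliced reads and 4 to 6 lower in total reads. Of all 274 tested introns, 251 to 258 were then called higher in the ratio. With all libraries, 57.7% of tested introns were called lower in spliced reads, 90.9% higher in unspliced reads and 23.7% lower in total reads. Over all introns, total reads were called higher in 54 introns, but in 33 without WT replicate A, 35 without WT replicate B and 27 with the scaling to introns over 98% unspliced in WT. Spliced reads were called higher in 17 introns, but in 7 to 11 without WT replicate A, B or C or prp2-1 replicate B, and in 2 with that scaling. Signs turned for UBC12, in values that did not pass the test: its change in total reads (-0.04) ranged from -0.45 to 0.23 when 1 library was left out, with 0.11 without prp2-1 replicate A and 0.14 without prp2-1 replicate B. Its change in unspliced reads (0.40) ranged from -0.094 without prp2-1 replicate C to 0.65 without prp2-1 replicate B. The difference between UBC5 and UBC4 was -0.041 with a pseudocount of 1 and -0.67 with the drawn reads, where the cause was not tested. With the replicate letter as a replicate block, 10 members were called higher in the ratio, 9 in unspliced and 1 in total reads, and 5 lower in total and 10 in spliced reads, so no count of members moved. In that setting 258 of 274 tested introns were called higher in the ratio. Same-letter libraries deviated together in the log2 ratio (correlations 0.0924, 0.205 and 0.272 for A, B and C over 274 introns). Each library correlated best with its own letter, but for A the margin was small, as prp2-1 replicate B with WT replicate A gave 0.0834. In total reads only A deviated together (0.277, against -0.0623 for B and 0.0235 for C). This is a hint from the data and not from the design. Shares of lost spliced reads matched by gained unspliced reads were also recomputed without each prp2-1 replicate, a choice made after seeing the data. Depth limits UBC5, UBC12 and DCN1, each with 14 to 73 reads per library.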
